A study of Rattus norvegicus with 18 samples.

Results

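Among 10609 genes measured in rat liver, 39 had their highest level after 5 and 8 weeks of diethylnitrosamine, above normal liver and above every later time. A gene was taken when the lower of its 5-week and 8-week means lay at least 0.58 above the highest of its other 4 group means on the scale of log2(signal + 16), which is a ratio of about 1.49. Each gene was measured by its brightest probe set (a group of array probes read out as 1 value) with a mean signal above 87.5 over the 18 arrays. The membership was thus chosen from the measured values at all 6 times, so every statement that these genes were high at 5 and 8 weeks is a description with no test. What the rule did not set, and what was tested, is the direction of the difference between 8 and 5 weeks, the difference of 12, 16 and 18 weeks from normal liver, and the differences among these 3 later times. Because both peak means had to be high, the rule favours genes that differ little between 5 and 8 weeks. In these tests a gene was called when its limma adjusted p was under 0.05 and its fold at least 2.

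The livers came from Sprague-Dawley rats, and RNA from the middle of the right lobe was hybridised to Affymetrix arrays that carry 31099 probe sets. One group was normal liver at 0 h, without the agent, and the 5 others were livers after 5, 8, 12, 16 and 18 weeks of diethylnitrosamine, a carcinogen that hepatocytes activate to a form that alkylates DNA. Each group had 3 arrays, which the labels describe as technical replicates, so p-values measure the spread between these arrays and may hold no difference between animals. The labels give 12-week-old as the age in every group and give neither dose nor sex, and untreated liver was sampled at 0 h alone, so treatment and age cannot be told apart. In this whole tissue, fewer cells of a type and less RNA per cell cannot be told apart either.

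The 39 genes do not belong to a single known pathway. They include regulators through which liver adjusts its transcription to feeding, hormones and the time of day: Bcl6 represses lipid and inflammatory genes, Per2 is part of the repressing arm of the circadian clock, and Mlxipl (ChREBP) activates glycolytic and lipogenic genes when glucose is plentiful. Other members encode hepatocyte enzymes and transporters, such as Dio1, which activates thyroid hormone, and Abcc6, through which hepatocytes release ATP into the blood. Probasin (Pbsn) is best known as a secreted lipocalin of the rodent prostate under androgen control.

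Promoter windows from RefSeq (build GRCr8, 250 bases before to 50 after the start) were matched for 29 members with a single RefSeq entry of their name. Their median content of G and C was 61%, against 52.3% in the windows of all 27457 genes with one. The median number of CpG dinucleotides was 18 against 7. These 27457 genes, used for all windows below too, are not limited to the 10609 measured genes from which the members came. Whether the differences belong to measured genes in general was not tested. The E-box CACGTG, the motif bound by the clock activators, occurred on either strand in 4 of the 29 windows (13.8%) and in 6.65% of all windows. Its 4 carriers are shown because they encode a repressor (Bcl6), a stress protein (Gadd45g), a transcription factor (Nfic) and a sulfur-transfer enzyme (Mpst), and the E-box is in capitals. The stretches lie at chr11:90358529-90358588 on the plus strand, chr17:13530482-13530541 on the minus strand, chr7:8932929-8932988 on the plus strand and chr7:111835987-111836046 on the plus strand.
Bcl6: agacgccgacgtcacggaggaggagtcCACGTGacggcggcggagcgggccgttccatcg
Gadd45g: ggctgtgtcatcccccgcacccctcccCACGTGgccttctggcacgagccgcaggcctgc
Nfic: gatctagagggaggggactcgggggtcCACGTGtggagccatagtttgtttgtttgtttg
Mpst: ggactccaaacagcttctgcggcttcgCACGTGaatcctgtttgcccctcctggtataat

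The Per2 window held no CACGTG. A stretch of it at chr9:99497095-99497214, on the minus strand, is shown because Per2 is the only clock gene among the members, with a CCAAT box in capitals. Pbsn is shown because it had the largest margin of all members, and the TATA box in capitals lies 27 bases before its start in the stretch at chrX:45807984-45808043, on the minus strand.
Per2: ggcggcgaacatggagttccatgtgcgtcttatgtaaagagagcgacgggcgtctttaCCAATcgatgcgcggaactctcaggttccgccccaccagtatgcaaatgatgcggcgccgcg
Pbsn: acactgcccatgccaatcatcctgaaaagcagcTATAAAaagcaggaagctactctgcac

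CCAAT occurred on either strand in 13 of the 29 windows (44.8%) and in 37.7% of all windows, and TATAAA in 3 (10.3%) and 14.3%. The STAT motif TTCNNNGAA was found in 4 windows (13.8% against 8.68%), those of Dxo, Lcmt1, Nfic and Nhej1. The AP-1 motif TGANTCA was in 2 windows (6.9% against 7.33%) and the cAMP response element TGACGTCA in 1 (3.45% against 1.91%). The nuclear factor I palindrome and the palindromic glucocorticoid response element were in 0 of the 29 windows (0.0437% and 0.00728% of all windows). The motifs may overlap and a match is a description of the letters, not of a bound site. The 37 members with a chromosome lay on many of them, with 7 on chromosome 1 and 6 on chromosome 5, and the closest pair were Dvl1 and Acap3 on chromosome 5, with 4 protein-coding genes between them.

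Summed signals per array ranged from 2.23e+07 to 2.64e+07. Over genes, which are not independent replicates, the correlation was 0.985 to 0.991 between arrays within a group and 0.874 to 0.979 between groups. The 6 arrays of 5 and 8 weeks stood apart in a control of RNA length. The Gapdh 3'/5' signal ratio, which is larger when transcripts are shortened, was 1.48 ± 0.0293 after 5 weeks and 2.12 ± 0.0521 after 8 weeks (SD, n = 3), and its mean in the 4 other groups was 1.12 to 1.32. The beta-actin ratio was 3.52 ± 0.260 and 4.48 ± 0.203 at 5 and 8 weeks, against 2.29 to 2.69 in the 4 other groups. The summed signal of 6 endothelial markers was also highest at these times, at 9777 to 10523 at 5 weeks and 9210 to 10126 at 8 weeks, against 8122 to 8785 in normal liver and 5768 to 7519 later, but single markers did not all follow the sum: Pecam1, an adhesion molecule of endothelium, averaged 312 in normal liver, 455 and 384 at 5 and 8 weeks, and 521 at 16 weeks, its highest mean. The hepatocyte markers were present throughout, with albumin (Alb) between 25587 and 40836, and no member belongs to any of the marker lists. The part of RNA length or of endothelial RNA in the members' levels was not tested. Normal liver also stood apart from all treated groups in genes that rat liver expresses differently between the sexes: the A1bg signal averaged 25852 in normal liver and between 166 and 1032 after treatment, and that of Prlr 8174 and between 223 and 1272. Cyp2c12, another gene of this kind, differed less, at 33977 in normal liver and between 8234 and 18668 after treatment. With no sex in the labels, this difference cannot be told apart from treatment in any comparison with normal liver below.

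The margin of the 39 genes, the distance from the lower peak mean to the highest other mean, ran from 0.59 to 1.88 on the log2 scale, with a median of 0.68. It was at least 1 in 8 genes and under 0.7 in 20, so most members lay near the edge. Just inside were Ttc13, Nucb2 and Acap3 (0.59 each), and just outside were Acaca (0.56), Arhgef19 (0.54) and Adgrb1 (0.54). All 6 arrays of 5 and 8 weeks lay above all 12 others in 39 of 39 members, a pattern that 2.7% of all genes had and that the rule itself favours. The gap between the lowest peak array and the highest other array ranged from 0.11 in LOC688915 to 1.70 in Pbsn. Of the members, 22 were higher at 5 than at 8 weeks and 17 the reverse. Normal liver was the highest of the 4 other groups in 14 members and the lowest in 14, so the genes shared the peak and not the level from which it stood out.

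**Figure D1:**
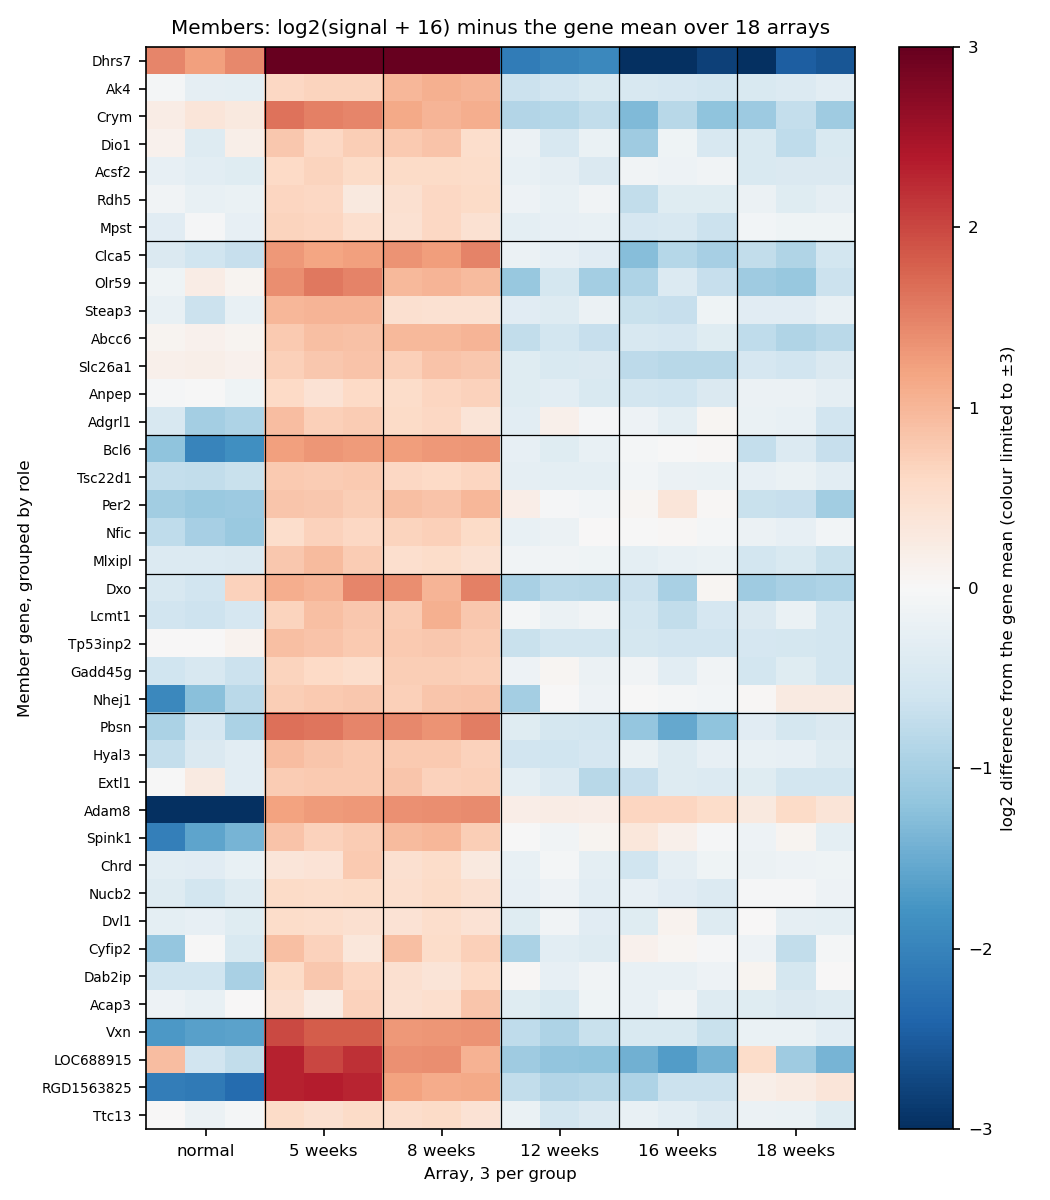
Each row is a member, grouped by role, and each column 1 of the 18 arrays. Colour is log2(signal + 16) minus the gene's mean over the arrays. The 6 columns of 5 and 8 weeks lie above the gene's mean in every row because the rule chose the genes for high values there. Their colour is pale where the excess is small, as in Acap3. Normal liver ranges from dark blue (Adam8) to red (Dhrs7).

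Metabolic enzymes formed a group of 7 members. The largest peak signals among them were those of Dhrs7, a member of the short-chain dehydrogenase/reductase family. Its signals were 2076, 1769 and 2047 in normal liver, 8599, 8829 and 8807 at 5 weeks, 6651, 6617 and 6559 at 8 weeks, 163, 175 and 182 at 12 weeks, 68.0, 40.6 and 93.0 at 16 weeks, and 65.2, 121 and 113 at 18 weeks. The peak arrays and the normal arrays were both far above the later ones, with no overlap between normal liver and any later time. Dhrs7 was lower than normal, by -3.39 ± 0.201 on the log2 scale at 12 weeks (adjusted p = 1.4e-09), -4.62 ± 0.201 at 16 weeks (adjusted p = 3.24e-11) and -4.13 ± 0.201 at 18 weeks (adjusted p = 1.45e-10; limma, difference ± SE, n = 3 arrays per group). At 16 weeks its mean of 67.2 ± 26.2 (SD) lay below 87.5, where the pseudocount of 16 sets part of the size. The name Dhrs7 is carried by a pair of RefSeq entries, so the probe set may not tell them apart.

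Crym encodes mu-crystallin, a cytosolic protein that binds thyroid hormone. Its signals were 663, 727 and 695 in normal liver, 1780.5, 1643 and 1595 at 5 weeks, 1259, 1159 and 1226 at 8 weeks, 302, 307 and 331 at 12 weeks, 216, 313 and 237 at 16 weeks, and 256, 336 and 261 at 18 weeks. The later arrays lay below the 3 normal arrays without overlap, as in Dhrs7. Crym fell, with differences from normal of -1.11 ± 0.116 at 12 weeks, -1.40 ± 0.116 at 16 weeks and -1.25 ± 0.116 at 18 weeks (adjusted p = 8.03e-07, 4.87e-08 and 2.17e-07, limma). Dio1, the type 1 deiodinase that makes active thyroid hormone, was weaker, at 299 ± 19.8 at 5 weeks and 301 ± 35.3 at 8 weeks (SD, n = 3), with means of 115 to 175 in the 4 other groups, and it was called at no later time.

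The other 4 enzymes were within 2-fold of normal liver at every later time. Ak4, a mitochondrial adenylate kinase, had a signal of 3759 ± 79.3 at 5 weeks and 4869 ± 122 at 8 weeks against 1625 to 2061 elsewhere, the largest excess of 8 over 5 weeks among the members (0.37 ± 0.0634). Mpst, which transfers sulfur from mercaptopyruvate, was at 3915 ± 232 at 5 weeks and 3675 ± 251 at 8 weeks against 1757 to 2377. Acsf2, an acyl-CoA synthetase, was at 2113 ± 68.9 at 5 weeks and 2042 ± 23.5 at 8 weeks against 1008 to 1266. These enzymes and Rdh5, a retinol dehydrogenase at 759.9 ± 101 at 5 weeks and 775 ± 36.1 at 8 weeks against 369 to 466, were not called against normal at 12, 16 or 18 weeks. Of all genes 76% were likewise called at none of these times.

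Membrane proteins and transporters also numbered 7. Abcc6 had signals of 1257, 1317 and 1273 in normal liver, 2057, 2231 and 2227 at 5 weeks, 2347, 2353 and 2423 at 8 weeks, 712, 809 and 735 at 12 weeks, 846, 835 and 927 at 16 weeks, and 703, 632 and 679 at 18 weeks. Normal liver lay between the peak and the later times, with no overlap on either side. The differences from normal of -0.76 ± 0.0601, -0.55 ± 0.0601 and -0.92 ± 0.0601 at 12, 16 and 18 weeks did not reach the 2-fold threshold. Slc26a1, an exchanger of sulfate and other anions, also had normal liver between the peak and the later times, at 4983 ± 258 at 5 weeks and 4951 ± 243 at 8 weeks against 3167 ± 44.7 in normal liver and 1618 ± 20.2 at 16 weeks, a difference of -0.96 ± 0.0529 between these last groups.

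Steap3, an endosomal ferrireductase of iron uptake, was at 1445 ± 8.82 at 5 weeks and 988 ± 6.91 at 8 weeks against 505 to 577 in the other groups. Anpep, aminopeptidase N of the bile canalicular membrane, was at 2784 ± 193 at 5 weeks and 2951 ± 136 at 8 weeks against 1318 to 1832. Clca5, of the calcium-activated chloride channel family, was at 871 ± 41.2 at 5 weeks and 952 ± 79.2 at 8 weeks against 169 to 298, under a name that a pair of RefSeq entries share. Adgrl1, a latrophilin adhesion receptor, was at 563 ± 44.0 at 5 weeks and 464 ± 38.6 at 8 weeks against 176 to 304. None of these 4 genes was called at a later time. Olr59, an olfactory receptor, was at 1044 ± 63.3 at 5 weeks and 727 ± 14.9 at 8 weeks against a mean of 379 in normal liver and 182 ± 37.4 at 18 weeks, a difference of -1.01 ± 0.165 (adjusted p = 8e-05, limma) that was under 2-fold when any of 4 single arrays was left out.

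Of the 5 transcriptional regulators, Bcl6 had the largest margin, 1.29. Its signals were 279.5, 156 and 175 in normal liver, 1574, 1699 and 1633 at 5 weeks, 1605, 1648 and 1679 at 8 weeks, 554, 513 and 565 at 12 weeks, 639, 661 and 681 at 16 weeks, and 396, 498 and 408 at 18 weeks. The 6 peak arrays were within a narrow range, the later arrays lay between them and normal liver, and normal liver did not overlap the later groups. Bcl6 stayed above normal by 1.39 ± 0.145 at 12 weeks, 1.66 ± 0.145 at 16 weeks and 1.07 ± 0.145 at 18 weeks (adjusted p = 8.04e-07, 9.09e-08 and 1.3e-05, limma). The call at 18 weeks was lost when normal array 2 or 3 or 18-week array 2 was left out (0.91 to 0.99).

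Per2 signals were 164, 156 and 159.7 in normal liver, 655, 641 and 607 at 5 weeks, 685, 663 and 730.1 at 8 weeks, 411, 349 and 336 at 12 weeks, 372, 465 and 367 at 16 weeks, and 219, 217 and 166 at 18 weeks. The 12-week and 16-week arrays lay between the peak and normal liver, and the 18-week arrays were only just above normal. Per2 was above normal by 1.11 ± 0.106 at 12 weeks and 1.24 ± 0.106 at 16 weeks (adjusted p = 3.14e-07 and 7.68e-08, limma), and by 0.29 ± 0.106 at 18 weeks, under 2-fold. Under quantile normalization the differences at 12 and 16 weeks were 0.80 and 0.85, below the threshold.

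Mlxipl was at 1026 ± 73.1 at 5 weeks and 813 ± 29.6 at 8 weeks against 379.9 to 523. Nfic, a nuclear factor I protein, was at 1313 ± 76.9 at 5 weeks and 1341 ± 58.3 at 8 weeks and exceeded normal by 0.83 ± 0.0865, 0.95 ± 0.0865 and 0.80 ± 0.0865 at 12, 16 and 18 weeks, each under 2-fold. A second probe set of Nfic, given below, did not show the peak. Tsc22d1, a leucine zipper protein first found as a target of TGF-beta, was the brightest member, at 9639 ± 151 at 5 weeks and 8673 ± 82.0 at 8 weeks against 3435 to 5083. These 3 genes were not called at the later times.

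**Figure D2:**
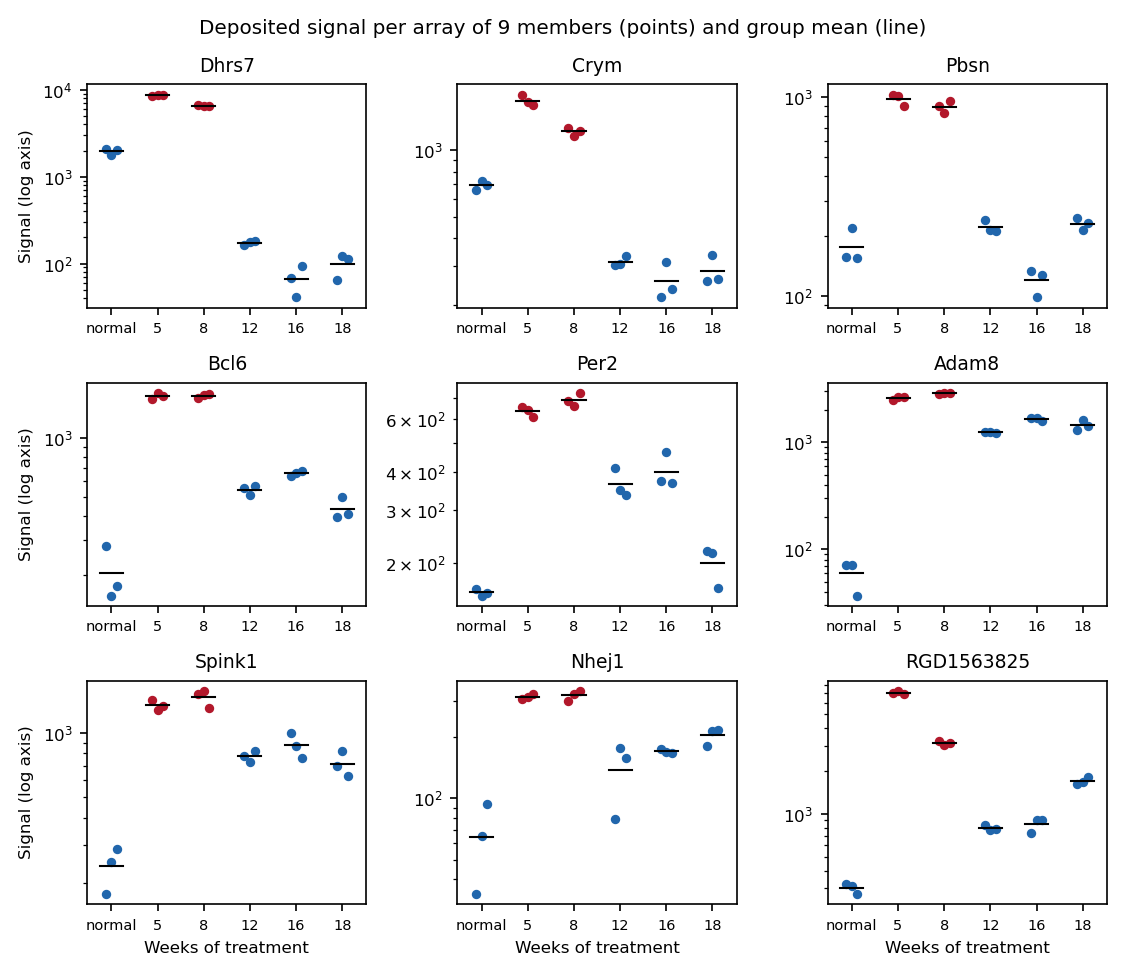
Deposited signal on a log axis for 9 members against weeks of treatment, with 1 point per array, a line at the mean of each group (n = 3) and the 5-week and 8-week arrays in red. Dhrs7 and Crym drop below normal liver after 8 weeks, while Bcl6, Adam8, Spink1 and RGD1563825 stay above it.

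Secreted proteins, proteases and matrix proteins made up 7 members. Pbsn had the largest margin of all, 1.88, with signals of 157, 219 and 155 in normal liver, 1024, 1003 and 899 at 5 weeks, 893, 830.3 and 948 at 8 weeks, 241, 213 and 212 at 12 weeks, 133, 98.1 and 127 at 16 weeks, and 245, 214 and 232 at 18 weeks. Its peak arrays shared no range with any other group, whereas the normal arrays overlapped those of 12 and 18 weeks. Pbsn differed from normal by 0.31 ± 0.122, -0.50 ± 0.122 and 0.37 ± 0.122 at 12, 16 and 18 weeks and was not called.

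Adam8 encodes a membrane metalloprotease known from leukocytes. Its signals were 70.8, 71.7 and 36.9 in normal liver, 2511, 2625 and 2655 at 5 weeks, 2829, 2864 and 2897 at 8 weeks, 1239, 1262 and 1235 at 12 weeks, 1681, 1680.4 and 1596 at 16 weeks, and 1316, 1609 and 1417 at 18 weeks. Every treated array was far above normal liver, where the gene lay below 87.5, so the sizes depend on the pseudocount. Adam8 exceeded normal by 4.09 ± 0.141, 4.50 ± 0.141 and 4.30 ± 0.141 at 12, 16 and 18 weeks (adjusted p = 2.72e-12, 8.28e-13 and 1.66e-12, limma). The Adam8 peak thus stood on a high level in all treated groups, with a margin of 0.65.

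Spink1, a secreted trypsin inhibitor, had signals of 177, 250.3 and 287 in normal liver, 1415, 1270.3 and 1336 at 5 weeks, 1508, 1563 and 1309 at 8 weeks, 774, 728 and 822 at 12 weeks, 995, 868 and 762 at 16 weeks, and 696, 819 and 629 at 18 weeks. The later arrays lay between normal liver and the peak without overlap. The differences from normal were 1.66 ± 0.146, 1.83 ± 0.146 and 1.54 ± 0.146 (adjusted p = 1.16e-07, 3.32e-08 and 2.76e-07, limma). They rest on the probe set used. A mean over the 3 probe sets of the gene gave 0.88, 0.69 and 0.54, under the threshold. Of these probe sets 1 had its highest means in normal liver (803) and at 5 weeks (800.4). The name Spink1 is carried by 2 RefSeq entries, so the probe sets may not all measure the same entry.

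Hyal3, of the hyaluronidase family, was at 2786 ± 149 at 5 weeks and 2602 ± 102 at 8 weeks against 1038 to 1267. Extl1, a glycosyltransferase of heparan sulfate synthesis, was at 438 ± 3.57 at 5 weeks and 429 ± 23.6 at 8 weeks against 171 to 248. Nucb2, the precursor of nesfatin-1, was at 4835 ± 42.7 at 5 weeks and 4674 ± 164 at 8 weeks against 2392 to 3109. Chrd, an extracellular antagonist of bone morphogenetic proteins, was at 460.2 ± 78.6 at 5 weeks and 431 ± 40.2 at 8 weeks against 247 to 280.4. None of these 4 genes was called at a later time.

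In the group of stress, repair and modifying proteins, Nhej1, a factor of DNA double-strand break joining, had signals of 34.0, 65.1 and 94.0 in normal liver, 306, 314 and 322 at 5 weeks, 300.4, 325 and 335 at 8 weeks, 79.4, 176 and 158 at 12 weeks, 173, 169 and 167 at 16 weeks, and 181, 214 and 216 at 18 weeks. Normal liver was below 87.5 on average, and the lowest 12-week array fell within the normal range, while the 16-week and 18-week arrays did not. Nhej1 was above normal by 1.28 ± 0.251 at 16 weeks and 1.52 ± 0.251 at 18 weeks (adjusted p = 0.000359 and 8.89e-05, limma). Without normal array 1 the value at 16 weeks was 0.98, below the threshold.

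Gadd45g, induced by growth arrest and DNA damage signals, was at 875 ± 41.2 at 5 weeks and 962 ± 6.35 at 8 weeks against 379 to 542. Tp53inp2, which acts in autophagy, was at 4050.4 ± 148 at 5 weeks and 3880.2 ± 79.7 at 8 weeks, 2317 ± 95.1 in normal liver and 1543 ± 27.8 at 18 weeks. Lcmt1, which methylates protein phosphatase 2A, was at 3115 ± 263 at 5 weeks and 3306 ± 382 at 8 weeks against 1176 to 1646. Dxo, which removes incomplete mRNA caps, was at 351 ± 62.2 at 5 weeks and 386 ± 70.0 at 8 weeks against 64.8 to 145, and 1 normal array (243) stood far above the other two (91.5 and 99.4). None of these 4 genes was called at a later time.

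The 4 signalling adaptors lay near the edge of the rule, with margins of 0.59 to 0.66. Dvl1, a dishevelled protein of Wnt signalling, was at 1667 ± 35.9 at 5 weeks and 1609 ± 54.1 at 8 weeks against 941 to 1019. A second probe set of Dvl1, given below, did not show the peak. Dab2ip, a GTPase-activating protein of Ras, was at 1008 ± 92.6 at 5 weeks and 883 ± 65.7 at 8 weeks against 373 to 580.1. Cyfip2, of the WAVE complex that drives actin branching, was at 409.8 ± 81.2 at 5 weeks and 428 ± 53.6 at 8 weeks against 171 to 262. None of them, nor Acap3, an Arf GTPase-activating protein at 335 ± 55.5 at 5 weeks and 365 ± 54.2 at 8 weeks against 175 to 216, was called.

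The last 4 members carry little annotation here. RGD1563825 had signals of 322, 312 and 274 in normal liver, 7039, 7265 and 6898 at 5 weeks, 3264, 3053 and 3122 at 8 weeks, 834, 767 and 786 at 12 weeks, 735, 903 and 902 at 16 weeks, and 1608, 1679.7 and 1817 at 18 weeks. It stood highest at 5 weeks, and no 2 of the groups overlapped except 12 and 16 weeks. It exceeded normal by 1.35 ± 0.0801, 1.43 ± 0.0801 and 2.43 ± 0.0801 at 12, 16 and 18 weeks (adjusted p = 1.35e-09, 5.55e-10 and 1.75e-12, limma).

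Vxn was at 1015 ± 70.9 at 5 weeks and 687 ± 9.19 at 8 weeks, against 73.2 ± 3.75 in normal liver, and exceeded normal by 1.12 ± 0.0766 at 16 weeks and 1.40 ± 0.0766 at 18 weeks (adjusted p = 5.61e-09 and 5.44e-10, limma). Its normal mean lay below 87.5, so the sizes depend on the pseudocount, and the value at 16 weeks was 0.68 under quantile normalization, 0.65 under median centring and 0.82 with a pseudocount of 64, each under 2-fold. A second probe set of Vxn, given below, did not show the peak. LOC688915 was at 310.2 ± 33.8 at 5 weeks and 159 ± 23.1 at 8 weeks and at means of 9.60 to 60.5 in the other groups. It was the 1 member that passed the signal filter only through its 5-week and 8-week arrays, since the mean over its 12 other arrays was 31.7. Its difference of 16 weeks from normal, -1.38 ± 0.439, is between means below 87.5 and is given as a value only. Ttc13, a tetratricopeptide repeat protein, was at 1964 ± 67.4 at 5 weeks and 1918 ± 84.3 at 8 weeks against 1022 to 1272. A second probe set of Ttc13, given below, did not show the peak.

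Between 5 and 8 weeks RGD1563825 was the only member called. The rule favours a small difference here, so the closeness of the other members is partly built in. The difference of 8 from 5 weeks had a median of -0.03 over the members, against 0.08 over all genes. At an adjusted p under 0.05 and a fold of at least 2, 1 of the 39 was called, and it was lower at 8 weeks, where 1.03% of all genes were called lower and 1.16% higher, so the count was near the background. The difference of RGD1563825 was -1.16 ± 0.0801 (adjusted p = 7.13e-08). Without the fold threshold 8 of the 39 members passed at an adjusted p under 0.05, against 35.5% of all genes. Those lower at 8 weeks were RGD1563825, Vxn (-0.55 ± 0.0766), Steap3 (-0.54 ± 0.133), Olr59 (-0.51 ± 0.165), Crym (-0.46 ± 0.116), Mlxipl (-0.33 ± 0.059) and Tsc22d1 (-0.15 ± 0.044). Ak4 was the one that was higher, at 0.37 ± 0.0634 (adjusted p = 0.000412).

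**Figure D3:**
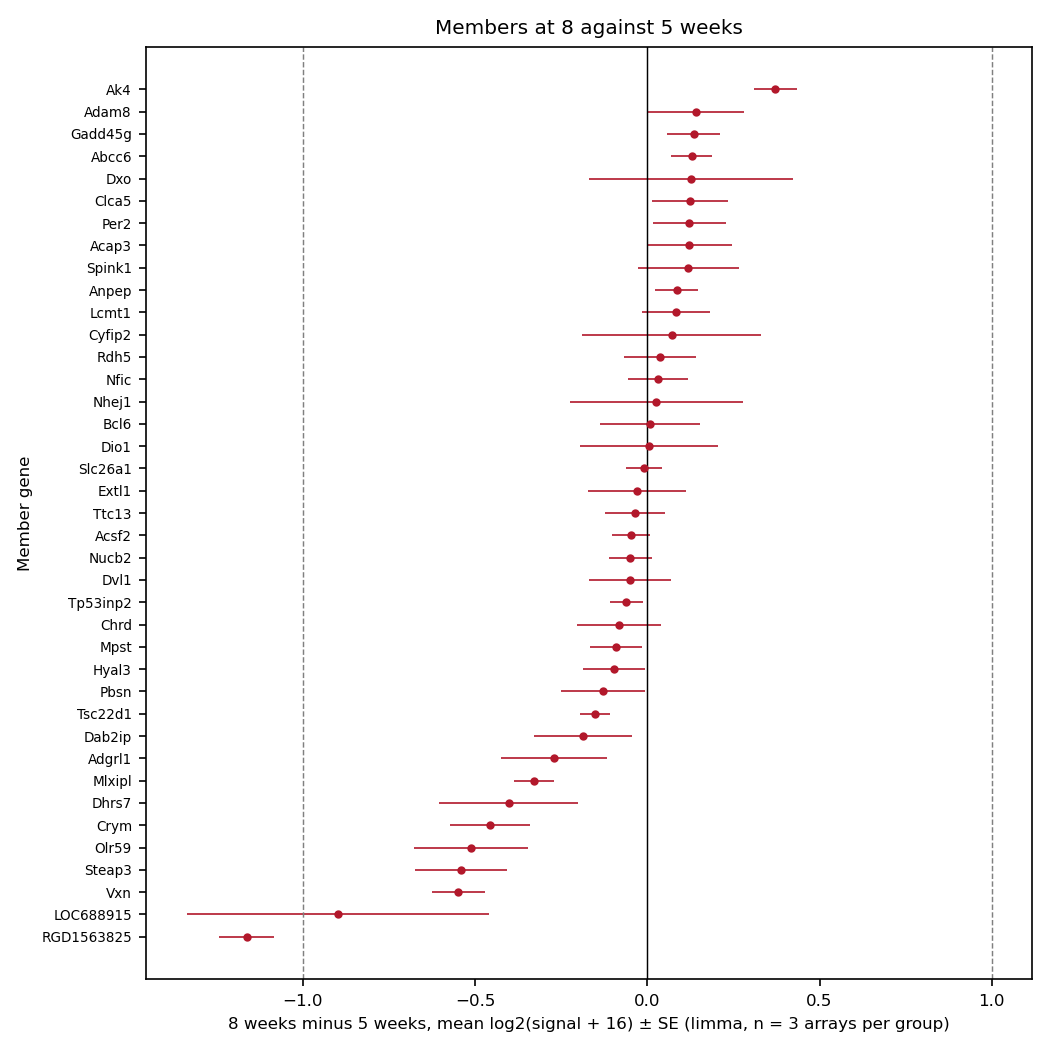
Difference of the 8-week from the 5-week mean of log2(signal + 16) for each member, with the standard error from limma (n = 3 arrays per group) and dashed lines at 2-fold. RGD1563825 alone lies past a line by its mean, at -1.16, and LOC688915 has the widest error.

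At the later times the members differed from normal liver about as often as all genes did. At 12 weeks 5 of 39 were called above normal (12.8%, against 12.5% of all genes) and 2 below (5.13%, against 4.47%). At 16 weeks 7 were above (17.9%, against 15%) and 3 below (7.69%, against 5.61%), of which 1 is LOC688915, leaving 2 without it. At 18 weeks 6 were above (15.4%, against 11.4%) and 3 below (7.69%, against 4.43%). These shares were close to those of all genes, and the members' medians of 0.03, -0.05 and 0.09 lay beside 0.16, 0.17 and 0.12 over all genes. Called at none of the 3 later times were 28 of the 39 members, beside 76% of all genes. The 3 comparisons share the normal arrays, so their results are not independent. The span was wide, from -4.62 for Dhrs7 to 4.50 for Adam8, both at 16 weeks. Among the later times themselves, Dhrs7 was lower at 16 than at 12 weeks by -1.23 ± 0.201 (adjusted p = 0.000352), where 0.556% of all genes were called lower and 0.99% higher. That value was -0.98 without 16-week array 2 and -0.87 with a pseudocount of 64, both under 2-fold. RGD1563825 was higher at 18 than at 12 weeks by 1.08 ± 0.0801 (adjusted p = 2.84e-07, limma), where 0.358% of all genes were called higher and 0.575% lower. Without the fold threshold 28, 30 and 24 members differed from normal at 12, 16 and 18 weeks, where 65.9%, 68.6% and 63.5% of all genes did. At a fold of at least 3 the counts were 3, 4 and 3, beside 7.25%, 9.28% and 6.67% of all genes. For 8 against 5 weeks that threshold was passed by 0.584% of all genes and by no member. Centring each array on its median moved the median of all genes to -0.23, -0.30 and -0.07. Members called above and below normal then went from 5 and 2 to 3 and 7 at 12 weeks. They went from 7 and 3 to 3 and 8 at 16 weeks, and from 6 and 3 to 5 and 5 at 18 weeks. The calls over all genes shifted in the same way. The share of them that were higher went from 73.7% to 41.2% at 12 weeks, from 72.8% to 38% at 16 weeks and from 72.1% to 56.2% at 18 weeks.

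**Figure D4:**
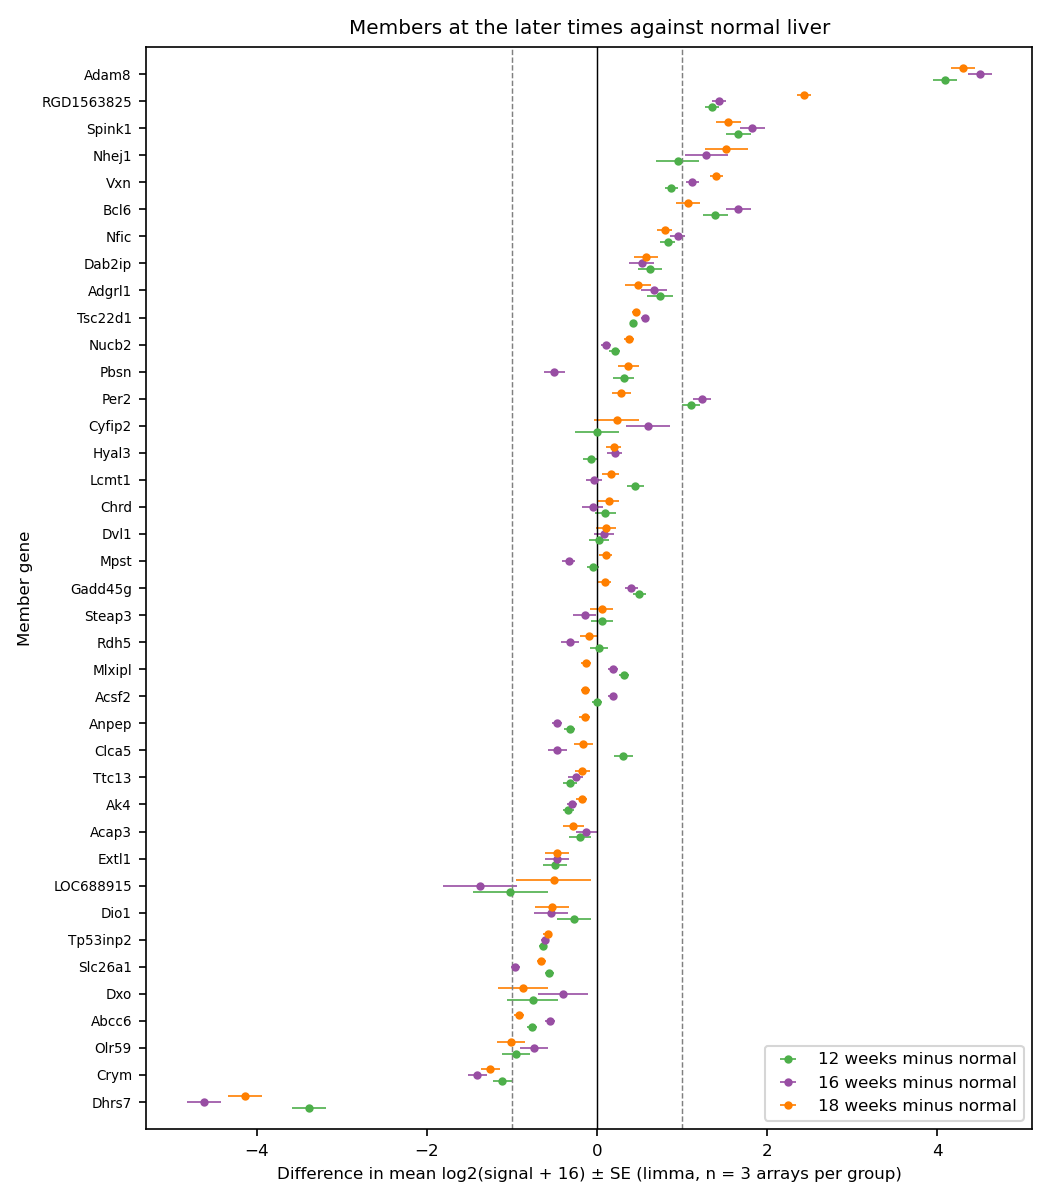
Difference of 12, 16 and 18 weeks from normal liver for each member in mean log2(signal + 16), with the standard error from limma (n = 3 arrays per group) and dashed lines at 2-fold. Adam8, above 4 at each time, and Dhrs7, below -3, mark the ends, and most members lie between the dashed lines.

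Per2 was the only member in a list of 15 measured circadian clock genes, and no other gene of the list met the rule. From 5 to 8 weeks 6 clock genes rose and 4 fell, where 1.16% of all genes were called higher and 1.03% lower. Per2 differed by 0.12 ± 0.106 (adjusted p = 0.407, limma). The repressor gene Nr1d1, with means of 719 in normal liver, 94.6 at 5 weeks and 1983 at 8 weeks, rose by 4.18 ± 0.122 between 5 and 8 weeks (adjusted p = 7.67e-12). The output gene Dbp rose by 3.42 ± 0.133 (adjusted p = 1.39e-10). The activator gene Bmal1 fell by 1.35 on the log2 scale (adjusted p = 1.95e-05) and the repressor gene Cry1 fell too (-1.60 ± 0.148, adjusted p = 1.58e-06). The hour at which the livers were taken is not given in the sources used here, and its part in Per2 and the other clock genes was not tested. Against normal liver 6 genes of the list were higher and 4 lower at 12 weeks, 3 were higher at 16 weeks and 3 lower at 18 weeks. Of all genes 12.5% were called higher and 4.47% lower at 12 weeks, 15% higher at 16 weeks and 4.43% lower at 18 weeks.

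Mlxipl was the only member in a list of 21 measured genes of fatty acid and triglyceride synthesis, and Acaca, which makes malonyl-CoA, lay just outside the margin. Mlxipl differed from normal by 0.31 ± 0.059, 0.19 ± 0.059 and -0.13 ± 0.059 at 12, 16 and 18 weeks and was not called. In the list 8 genes fell and 2 rose at 12 weeks, 13 fell at 16 weeks and 11 at 18 weeks, with medians of -0.77, -1.31 and -1.06. Of all genes 4.47%, 5.61% and 4.43% were called lower at these times and 12.5% higher at 12 weeks. The medians of all genes were 0.16, 0.17 and 0.12. From 5 to 8 weeks 2 of the 21 fell, Elovl5 (-1.43) and Gpam (-1.01), where 1.03% of all genes were called lower. Pklr, the liver pyruvate kinase and a classic Mlxipl target, differed from normal by -1.16, -2.26 and -1.74 at the 3 later times. At 5 and 8 weeks, where Mlxipl was highest, Pklr differed from normal by 0.27 and -0.53 and was not called.

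Most other probe sets of the same genes did not show the peak. Further probe sets with a mean above 87.5 existed for 11 members: Vxn, Hyal3, Extl1, Tsc22d1, Tp53inp2, Rdh5, Dvl1, Nfic, Spink1, Cyfip2 and Ttc13. The margin of these 12 probe sets ran from -1.37 to 0.34. The 1 above 0, a probe set of Spink1, was highest at 5 and 8 weeks, at 967 and 1014 against 225 to 759 elsewhere, but below the margin of 0.58. Of these 12, 10 had a higher mean at 5 weeks than in normal liver, 4 at 8 weeks, and 10 were lower at 8 than at 5 weeks. The second probe set of Hyal3 had means of 331, 376 and 304 in normal liver, after 5 weeks and after 8 weeks, and of 189 to 237 later. That of Extl1 was at 254, 329 and 243 in the first 3 groups and 45.1 to 79.7 later. That of Tp53inp2 was lowest at 8 weeks, at 97.1, against 225 in normal liver. Those of Dvl1 and Ttc13 were brighter and also lowest at 8 weeks. For Dvl1 the means were 1000.5 in normal liver, 1059 at 5 weeks and 828 at 8 weeks. For Ttc13 they were 812, 1053 and 651 in the same groups. Since the rule took the brightest probe set of each gene and required its peak, the others were not chosen for it, and 28 members had no second probe set above the filter. Which part of each transcript the probe sets cover was not used here, and the part of the 3'/5' ratios in these differences was not tested.

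**Figure D5:**
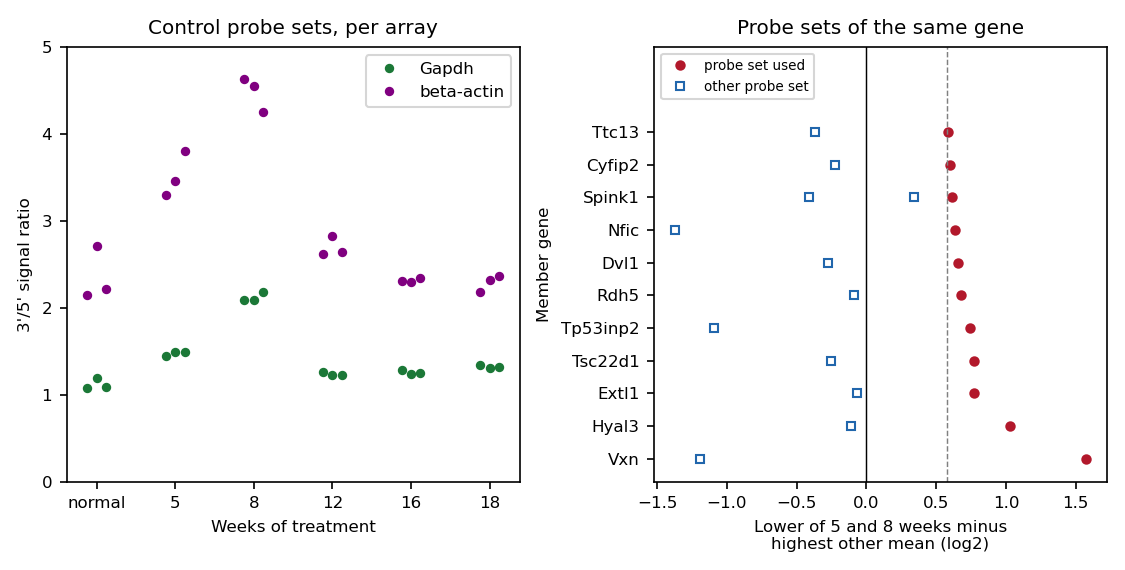
Left, the 3'/5' signal ratios of Gapdh and beta-actin on each of the 18 arrays against weeks of treatment, highest at 8 weeks and next at 5 weeks. Right, the margin (lower of the 5-week and 8-week means minus the highest other mean, log2) of the probe set used and of the other probe sets above 87.5 in 11 members, with a dashed line at 0.58. All blue squares but 1 lie below 0.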

How the data were processed

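Intensity values on a linear scale, 1 for each probe set on each array, were deposited by the authors, who made them with GCOS 2.0 per the submitters' processing notes. A deposited workbook holds, per the file headers, gene names, the intensities of the 15 treated arrays (equal to the value table within 0.1) and log2 ratios of treated to normal arrays by the authors, which were not used for any result. Its 3 normal columns hold the same values in another row order and were not used. Of 31099 probe sets 19891 named 1 gene, 23 several and 11185 none. Signals were turned into log2(signal + 16) without further scaling, and the brightest probe set per gene with a mean above 87.5 was kept (10609 genes). Older names were updated through RefSeq (31 members matched by symbol, 6 by synonym, RGD1563825 and LOC688915 by neither). A single model of all 6 groups was fitted with limma 3.58.1 (R 4.3.3), with two-sided tests and Benjamini-Hochberg adjustment over all 10609 genes. A gene was called at an adjusted p under 0.05 and a fold of at least 2. Other steps used pandas 2.3.3 and matplotlib 3.10.9 under Python 3.11.15, with numpy 2.4.6.

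The members, the gene lists and the tests were chosen with earlier results of these data known, and the role groups were set after the members were known. Named genes were the 20 members with the largest margin, up to 4 per list, the called members furthest from 0, those at the edge of the margin and the 10 brightest. The rule left out 6 members, Vxn, Nfic, Cyfip2, Adgrl1, Dab2ip and Chrd, which were named after their values were seen. On simulated data for 8 against 5 weeks, 99 of 100 genes changed by 1.5 and 100 of 100 changed by 2.5 on the log2 scale were called, with 1 false call among 10409 genes. Both changes lie above the 2-fold threshold. The simulated noise was independent and had the spread between arrays within a group, so these counts are no error rates for differences between animals. Alternatives were other scalings, pseudocounts, filters, probe-set summaries, margins, fold thresholds and variance models, fits of the compared groups alone, a replicate block and each array left out. The margin with only 5 or only 8 weeks as the peak, and the alternatives for differences among 12, 16 and 18 weeks, were added after the data were seen. The precision is limited by 3 arrays per group, which the labels describe as technical replicates. The number of animals behind each group is not known.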

Additional observations from a re-analysis of the deposited data

Results flagged for a closer look

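RGD1563825, which has no annotation in the tables used here, was the only member that differed at least 2-fold between its peak times, at -1.16 ± 0.0801 for 8 against 5 weeks (adjusted p = 7.13e-08, limma). It was also higher at 18 than at 12 weeks, by 1.08 ± 0.0801 (adjusted p = 2.84e-07, limma), so its level fell after 5 weeks and was higher again at the last time. Dhrs7 was lower at 16 than at 12 weeks by -1.23 ± 0.201 (adjusted p = 0.000352, limma), between means of 173 ± 9.95 and 67.2 ± 26.2, of which the second lies below 87.5, and it was under 2-fold without 16-week array 2 (-0.98). All 3 were picked out because the difference between the times was itself tested and passed.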

How the results depend on the processing

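Membership depended on the margin, with 144 genes at 0.3 and 8 at 1, against 39. With only 5 weeks as the peak 107 genes met it, and with only 8 weeks 72 (both chosen after seeing the data). Leaving out single arrays gave 36 to 40 genes, and 30 to 53 genes met the rule under the other scalings, pseudocounts and filters. These sets did not always hold all 39 members. Quantile normalization gave 42 genes, of which 34 were among the 39, and median centring gave 53, of which 35 were. Without 8-week array 2 the rule gave 36 genes, of which 34 were among the 39. Averaging over probe sets left 28, all of them among the 39. As many members, 28, had no second probe set above the filter, and 11 had one. Membership of these 11 thus rests on the choice of the brightest probe set. Without a fold threshold 8 members passed for 8 against 5 weeks, and 28, 30 and 24 for 12, 16 and 18 weeks against normal. At a fold of 3 these counts were 0, 3, 4 and 3. Leaving out single arrays gave 1 to 1, 7 to 9, 9 to 10 and 7 to 10 calls. Same-numbered arrays shared little deviation, with correlations of -0.071 to 0.190 over 45 pairs. Their median was 0.032, against -0.019 between arrays of other numbers, and 9 of 18 arrays were closest to their own number. With the replicate block the counts were 1, 8, 10 and 9. The share of all calls that were higher was 73.7%, 72.8% and 72.1% at 12, 16 and 18 weeks, and 41.2%, 38% and 56.2% after median centring. No called difference changed sign under the alternatives run, while some differences under the threshold did. Of single calls, those of Per2 at 12 and 16 weeks, Vxn and Nhej1 at 16 weeks and Bcl6 at 18 weeks were lost under quantile normalization and median centring, and those of RGD1563825 at 12 and 16 weeks under centring (0.97 each). Normal array 1 decided LOC688915 at 16 weeks (-0.85 without it). A pseudocount of 64 also took 6 calls under 2-fold: Per2 at 12 weeks (0.93), Vxn (0.82), LOC688915 (-0.68) and Nhej1 (0.89) at 16 weeks, and Bcl6 (0.92) and Olr59 (-0.86) at 18 weeks. The comparisons among 12, 16 and 18 weeks were rerun under the same alternatives, chosen after seeing the data, and Dhrs7 for 16 against 12 weeks was under 2-fold with a pseudocount of 64 (-0.87) and without 16-week array 2 (-0.98).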
